A study of Mus musculus with 1111 samples.

Results

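10 mouse genes that bring lipid into a cell, store it or send it out again were followed in single microglia sorted by the plasma protein they carried. They are Lpl, Fabp5, Acsl1, Lipa, Soat1, Plin2, Abca1, Abcg1, Nr1h3 and Nr1h2. These 10 genes were chosen by name for their roles in lipid handling, with earlier results of these data known, from the 35583 genes of the deposited tables. The cells were brain microglia of young mice, 3 months old, taken 20 hours after an injection of plasma proteins that carried the fluorescent dye NHS-Atto647N. Each cell was a library of its own, made with Smart-seq2, which reads whole transcripts from sorted single cells. The labels place each cell in plasma none, plasma low or plasma high by its plasma signal, and all 3 groups are microglia of such mice. Mouse strain and sex are not given in the labels.

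Cell labels further hold a plate well and TH 1, TH 2 or TH 3, and what TH stands for is not stated. No label names an animal. Each group therefore counts as 1 sample of cells, so no test was run, no p-value is given, and every difference is a description. Values are given for each TH number, and errors are the SD over the 3 TH numbers (n = 3) and not over animals. The groups also sat in different plate columns, 1 to 8 for plasma none cells, 9 to 16 for plasma low cells and 17 to 23 for plasma high cells, so group and plate position cannot be told apart.

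Microglia meet lipid as lipoproteins, myelin debris and dying cells. Lipoprotein lipase frees fatty acids from triglyceride, the lysosome frees cholesterol from its esters, and what is not used is esterified again and kept in droplets or handed by ABC transporters to lipoprotein particles outside the cell. The liver X receptors, nuclear receptors that bind oxysterols, switch on the transporters when sterol is plentiful.

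Of the cells with data, 987 passed a filter on depth, of which plasma none cells made up 35.1%, plasma low cells 35.6% and plasma high cells 29.4%. Median depth per cell was 207429, 229931 and 267143 reads in none, low and high cells. At an equal depth of 50000 reads the median cell had a read of 1546, 1794 and 1734 genes in the same order. The 8 microglia markers summed to a mean of 49829 CPM (a gene's read count scaled by all reads in genes), 48931 CPM and 49554 CPM in the 3 groups, in that order, and none was at 0. Lymphocyte and neutrophil markers were all at 0. Oligodendrocyte markers summed to 49.6, 52.3 and 74.3 CPM, with Mog and Cldn11 at 0, and 2 cells of the 987 held at least 3 markers of another cell type. Neuron markers summed to 0.226, 1.63 and 18.9 CPM, up to 55.4 CPM in 1 sum of plasma high cells, with Slc17a7, Gad1 and Gad2 at 0. The list of activated microglia summed to 17876, 19989 and 22011 CPM, with Spp1 and Gpnmb at 0, and Apoe is among its genes. The part of these depth and marker differences in the results was not tested.

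Levels differed widely between the 10 genes. Per kilobase of exon and averaged over the 9 sums of cells (3 groups at 3 TH numbers), Abcg1 was highest at 149.2 ± 33.2 CPM per kb (SD, n = 9), and Lipa followed at 30.9 ± 6.99 CPM per kb. Both stood apart from the next gene by more than the SD. Nr1h2 (15.6 ± 4.59 CPM per kb), Soat1 (14.8 ± 4.16) and Abca1 (12.3 ± 4.63) did not differ from one another beyond their spread. Lpl (8.28 ± 9.97 CPM per kb), Plin2 (8.06 ± 4.20) and Acsl1 (4.92 ± 2.24) overlapped in the same way. Nr1h3 and Fabp5 were close to absent, at 0.237 and 0.214 CPM per kb. The share of cells with a read ranged from 0.203% for Nr1h3 to 64.6% for Abcg1 when every cell was thinned to 50000 reads.

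**Figure D1:**
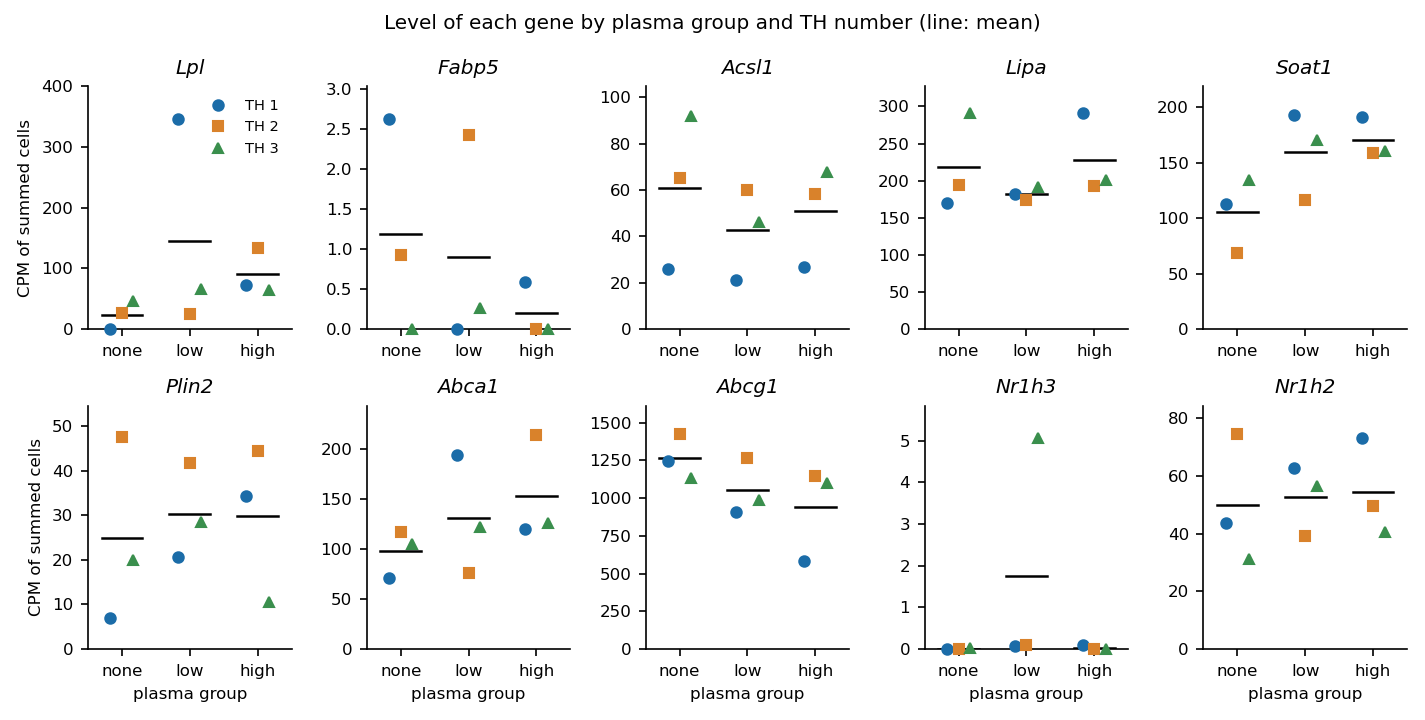
Level of each of the 10 genes (CPM of summed cells, linear axis from 0, 1 scale per gene) in plasma none, low and high; each point is a TH number and each line the mean of 3. For Lpl, Abca1 and Soat1 all 3 points of plasma high cells lie above all 3 of plasma none cells, while Abcg1 is lower in plasma high cells at each TH number.

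The promoters are shown because the efflux transporters and Lpl are known targets of the liver X receptors, which bind a pair of AGGTCA half-sites 4 bases apart. RefSeq promoters (GRCm38.p6) were found for 7 of the 10 genes, and Lpl, Abcg1 and Fabp5 had no entry. The 250 bases before each start were searched on both strands for AGGTCA, any 4 bases, and AGGTCA again. None held the motif exactly. Abca1 came closest, with 9 of the 12 fixed letters, from 67 to 52 bases before the start. The 250 bases before the Abca1 start, at chr4:53159896-53160145 on the minus strand, read as follows, with that stretch in capitals.
Abca1: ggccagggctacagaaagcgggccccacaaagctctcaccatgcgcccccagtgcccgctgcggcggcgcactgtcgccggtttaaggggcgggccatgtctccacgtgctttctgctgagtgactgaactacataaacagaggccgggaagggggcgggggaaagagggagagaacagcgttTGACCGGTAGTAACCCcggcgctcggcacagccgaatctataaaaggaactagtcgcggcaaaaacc

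Set beside the closest stretch of the storage and lysosome genes, each turned to the strand of the motif and with the matching fixed letters in capitals, the Abca1 stretch has 1 more match.
Abca1: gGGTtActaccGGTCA
Soat1: AGGaCcaccaAtGgCA
Plin2: AGGTCAggggtccTgA
Lipa: AGccCAgcccAGGcCt
The other matched promoters, those of Acsl1, Nr1h2 and Nr1h3, also reached 8 of 12 letters. Of all 32851 RefSeq promoters of this length, 18.5% held a stretch with at least 9 matching letters and 70.6% one with at least 8. A match this common is a description of the letters only.

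Lpl encodes lipoprotein lipase, the secreted enzyme that cleaves triglyceride, and lies at chromosome 8, 68880491 to 68907448 on the plus strand. In plasma none cells, Lpl was at 0, 26.01 and 46.3 CPM at TH 1, 2 and 3. In plasma low cells it was at 346.3, 25.7 and 65.5 CPM, and in plasma high cells at 72.2, 134.2 and 64.6 CPM. All 3 values of plasma high cells lay above all 3 of plasma none cells, and plasma low cells overlapped both. The group means were 24.1 ± 23.2, 145.8 ± 174.8 and 90.3 ± 38.2 CPM. The high value of plasma low cells at TH 1 came from a single cell, which held 90.7% of that sum's Lpl reads. The 0 in plasma none cells at TH 1 allows up to 0.141 CPM (3 reads) by counting error, so the log2 ratio there, 6.19, rests on the added 1 CPM. At the other TH numbers plasma high cells stood 2.32 and 0.47 above plasma none cells on the log2(CPM + 1) scale, a mean of 1.40 without TH 1 against 3.00 ± 2.92 with it.

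The number of cells with Lpl is less open to single cells than its sum. With every cell thinned to 50000 reads, Lpl was read in 4.34% of plasma none cells (95% exact Clopper-Pearson interval 2.45 to 7.05%), 9.40% of plasma low cells (6.56 to 12.9%) and 12.8% of plasma high cells (9.14 to 17.2%). Such intervals cover the counting of cells within a group, not the spread between samples, and compare no groups. The share was higher in plasma high cells by 10.9, 11.2 and 3.28 percentage points at TH 1, 2 and 3, and among cells with a read the median level was 403.8 CPM in plasma none cells and 431.5 CPM in plasma high cells. TH 3 had the smallest difference in share.

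Shares of cells were higher for many genes. A gene was compared where it had a mean of 20 CPM and, before thinning, a read in 10% of the cells of 1 group. Among the 5534 such genes in plasma high cells against plasma none cells, 34.7% had a higher thinned share in plasma high cells at all 3 TH numbers, and the median difference was 2.58 percentage points. Among the 7 members compared these were 3, namely Lpl, Abca1 and Soat1, but Lpl passed that filter only through plasma high cells, so its higher share is bound to the filter. Their mean differences were 8.46 ± 4.49, 7.20 ± 4.05 and 8.87 ± 2.61 points. In plasma low cells against plasma none cells, where 38.8% of 5489 genes had a higher share at all 3 TH numbers, the 6 members compared included 2 such genes, Abca1 and Soat1. Genes per cell at equal depth moved the same way, and their part in these shares was not tested.

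**Figure D2:**
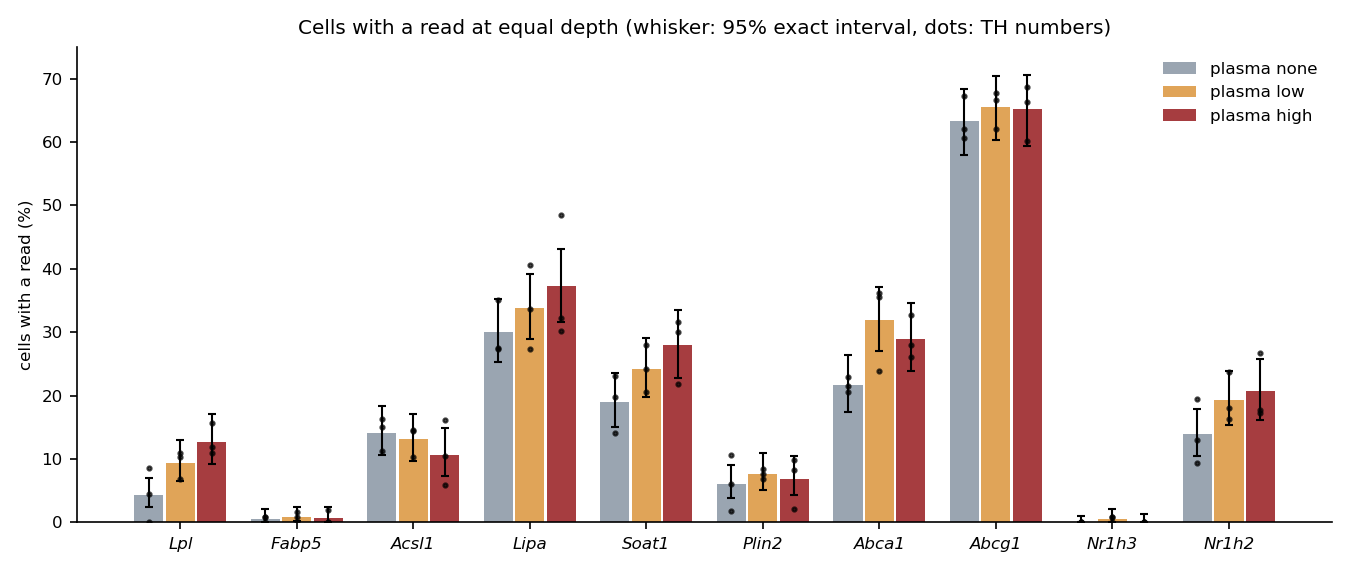
Share of cells with a read (%) after each cell was thinned to 50000 reads, by gene and group; whiskers are 95% exact binomial intervals over the cells of a group and dots the 3 TH numbers. The bars of Lpl, Soat1 and Abca1 are higher in plasma high cells than in plasma none cells, those of Abcg1 lie between 63.3% and 65.5%, and Fabp5 and Nr1h3 are near 0.

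Fabp5 and Acsl1 act on the fatty acids once they are in the cell: Fabp5 carries them through the cytosol and Acsl1 joins them to coenzyme A. Fabp5 (chromosome 3, 10012548 to 10016607) was read in 7 thinned cells of 987, with group means of 1.19, 0.90 and 0.199 CPM, so no difference between groups could be detected. Acsl1 (chromosome 8, 46471037 to 46536051) was at 25.99, 65.2 and 91.8 CPM in plasma none cells, 21.2, 60.2 and 46.4 CPM in plasma low cells, and 27.03, 58.2 and 67.9 CPM in plasma high cells. TH 1 was lowest in every group, and the groups overlapped. The log2 ratio of plasma low cells to plasma none cells was -0.45 ± 0.45, below 0 at all 3 TH numbers. That of plasma high cells was -0.18 ± 0.24 with both signs, while the thinned share of cells with Acsl1 differed by -5.27, -4.63 and -0.11 points. The gene Gm45244 lies on the opposite strand within Acsl1 exons at a mean of 5.77 CPM, and whether the counting used strand is not given in the sources used here.

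Lipa encodes lysosomal acid lipase, which frees cholesterol and fatty acids from lipoprotein esters in the lysosome (chromosome 19, 34492318 to 34527474). Its level was 170.1, 193.96 and 291.6 CPM in plasma none cells, 181.6, 174.4 and 191.3 CPM in plasma low cells, and 291.5, 193.4 and 200.3 CPM in plasma high cells. TH 3 was the highest of plasma none cells and TH 1 the highest of plasma high cells, so the log2 ratio of plasma high cells to plasma none cells took both signs (0.08 ± 0.66). Cells with a Lipa read were 30.1% of plasma none cells, 33.9% of plasma low cells and 37.2% of plasma high cells, with intervals of 25.3 to 35.2%, 28.96 to 39.1% and 31.7 to 43.1%. At TH 1, 2 and 3 plasma high cells differed from plasma none cells by 20.9, 2.77 and -2.78 points. For plasma low cells these differences were 13.1, -0.083 and -1.42 points, so TH 1 carried most of both. In positive cells the median level was 729.4 CPM in plasma none cells, 389.96 CPM in plasma low cells and 440.1 CPM in plasma high cells, and at each TH number plasma none cells had the highest median. Lipa was higher in plasma high cells than in plasma low cells at all 3 TH numbers, with a log2 ratio of 0.30 ± 0.33.

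Soat1 and Plin2 stand for storage. Soat1 esterifies free cholesterol at the endoplasmic reticulum and lies at chromosome 1, 156424525 to 156474331. In plasma none cells Soat1 was at 112.5, 69.1 and 134.8 CPM, in plasma low cells at 192.9, 116.001 and 170.3 CPM, and in plasma high cells at 191.2, 159.1 and 160.8 CPM. Each value of plasma high cells lay above every value of plasma none cells. Plasma low cells were above plasma none cells within each TH number, though their lowest value overlapped. The log2 ratios of plasma high cells to plasma none cells were 0.76, 1.19 and 0.25, a mean of 0.73 ± 0.47 (1.66-fold), and that of plasma low cells was 0.62 ± 0.24 (1.53-fold). Plasma high and plasma low cells differed by 0.12 ± 0.29, less than the spread. Soat1 was thus higher at all 3 TH numbers in both groups that carried plasma, in comparisons that share the plasma none cells.

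Cells with a Soat1 read were 19.1% of plasma none cells (15.1 to 23.6%), 24.2% of plasma low cells (19.8 to 29.05%) and 27.9% of plasma high cells (22.8 to 33.5%). The median level in positive cells was 162.8 CPM, 318.6 CPM and 280.7 CPM. Both the share and the level per positive cell were thus higher in plasma high cells, and the cell with the most Soat1 reads held 8.51% of them there.

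Plin2 encodes perilipin 2, a coat protein of lipid droplets that is widely used as a droplet marker (chromosome 4, 86648386 to 86670060). It was at 7.06, 47.5 and 20.0 CPM in plasma none cells, 20.6, 41.7 and 28.5 CPM in plasma low cells, and 34.3, 44.5 and 10.6 CPM in plasma high cells. The groups overlapped throughout. Plin2 was read in 6.07%, 7.69% and 6.90% of thinned cells, with exact intervals of 3.796 to 9.13%, 5.13 to 10.99% and 4.26 to 10.5%. Before thinning the shares were 6.07%, 7.98% and 6.90%, under the 10% needed for a comparison. The log2 ratio of plasma high cells to plasma none cells was 0.39 ± 1.55.

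The mean levels of the efflux transporters Abca1 and Abcg1 differed between groups in opposite directions. Abca1, which loads cholesterol and phospholipid onto lipid-poor apolipoproteins, lies at chromosome 4, 53030787 to 53159895. It was at 70.8, 117.004 and 104.9 CPM in plasma none cells, 193.9, 75.9 and 121.7 CPM in plasma low cells, and 119.99, 213.8 and 126.2 CPM in plasma high cells. All values of plasma high cells were above all values of plasma none cells, the nearest pair being 119.99 and 117.004 CPM, while plasma low cells spread across both. The log2 ratios of plasma high cells to plasma none cells were 0.75, 0.86 and 0.26, a mean of 0.63 ± 0.32 (1.54-fold). For plasma low cells the mean was 0.35 ± 1.04, with both signs.

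Abca1 was read in 21.7% of plasma none cells (17.4 to 26.4%), 31.9% of plasma low cells (27.1 to 37.1%) and 28.97% of plasma high cells (23.8 to 34.6%). At TH 1, 2 and 3 plasma low cells were above plasma none cells by 14.04, 0.923 and 15.7 points, so TH 2 hardly differed, and plasma high cells by 11.1, 3.03 and 7.44 points. In positive cells the median was 146.2, 153.2 and 187.1 CPM. By TH number the medians were 229.8, 112.1 and 156.9 CPM in plasma none cells and 153.2, 485.75 and 134.3 CPM in plasma high cells. At TH 1 and TH 3 plasma high cells were thus the lower of these groups.

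Abcg1, which passes cholesterol to mature lipoprotein particles, was the most abundant of the 10 genes (chromosome 17, 31057675 to 31117988). It was at 1247, 1423 and 1135 CPM in plasma none cells, 905.8, 1269 and 990.3 CPM in plasma low cells, and 586.8, 1144 and 1097 CPM in plasma high cells. Within each TH number plasma none cells had the highest value, although the groups overlapped across TH numbers. The log2 ratios of plasma high cells to plasma none cells were -1.09, -0.31 and -0.05, a mean of -0.48 ± 0.54, and TH 1 carried most of it: without TH 1 the mean was -0.18. Plasma low cells gave -0.27 ± 0.16.

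The share of cells with Abcg1 did not follow its level. It was 63.3% in plasma none cells (57.97 to 68.4%), 65.5% in plasma low cells (60.3 to 70.5%) and 65.2% in plasma high cells (59.4 to 70.6%). The median level in positive cells was 1435 CPM, 1126 CPM and 965.3 CPM in the same order. By TH number the medians were 1264, 2005 and 1171 CPM in plasma none cells and 814.9, 862.8 and 1501 CPM in plasma high cells, so TH 3 went the other way. A single cell held 29.3% of the Abcg1 reads of plasma high cells at TH 2, and with the cell of most reads left out of each sum the log2 ratio was -0.64.

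**Figure D3:**
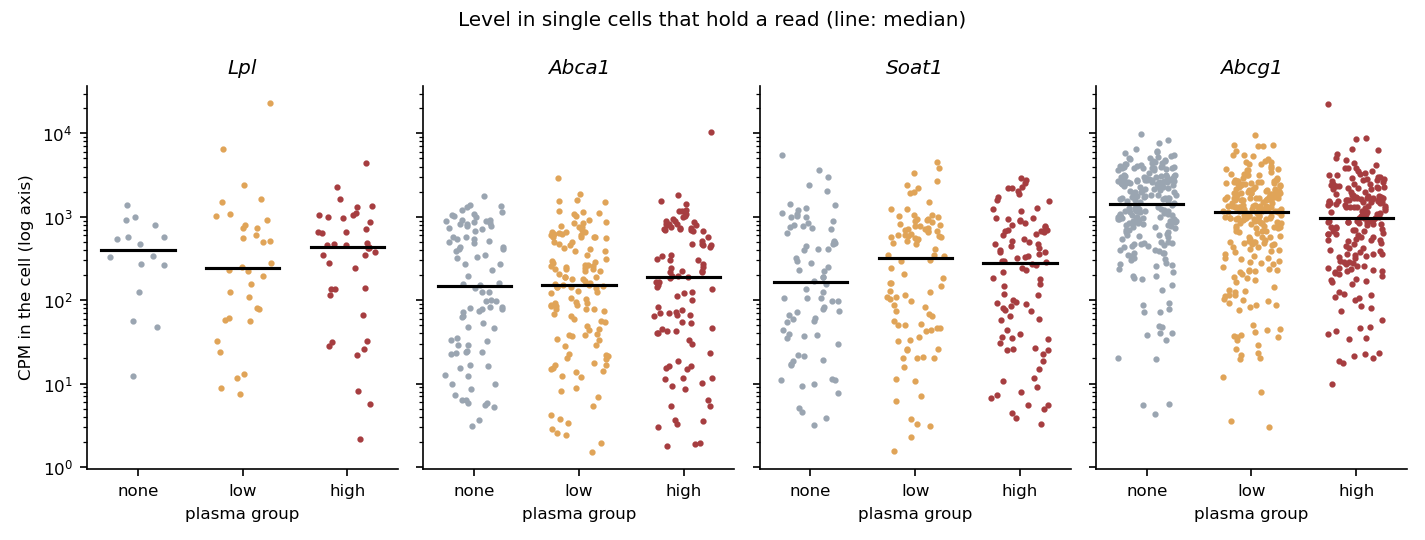
CPM of Lpl, Abca1, Soat1 and Abcg1 in each single cell that holds a read of the gene (log axis), by group; the line is the median of those cells. Levels in positive cells span several orders of magnitude, the Lpl and Abcg1 outliers named in the text stand above the rest, and the Abcg1 median steps down from 1435 CPM in plasma none cells to 965.3 CPM in plasma high cells.

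Nr1h3 and Nr1h2 encode liver X receptors alpha and beta. Nr1h3 (chromosome 2, 91184061 to 91202834) had a read in 2 of the 987 thinned cells, and a single cell held 82.5% of all its reads. The gene Gm13783 lies within its exons on the same strand, at 87 reads. How reads shared with Gm13783 were counted is not given in the sources used here, so Nr1h3 may be undercounted. Nr1h2 (chromosome 7, 44549616 to 44553951) had 14665 reads and was at 43.7, 74.5 and 31.2 CPM in plasma none cells, 62.9, 39.2 and 56.5 CPM in plasma low cells, and 73.3, 49.5 and 40.7 CPM in plasma high cells. Nearly all counted reads of the pair thus belonged to the beta form, and its groups overlapped. The log2 ratio of plasma high cells to plasma none cells was 0.17 ± 0.68 and that of plasma low cells 0.15 ± 0.93. Nr1h2 was read in 13.9%, 19.4% and 20.7% of thinned cells, with both signs over the TH numbers.

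Of the 10 genes, 7 passed the filter on low values in plasma high cells against plasma none cells, and Plin2, Fabp5 and Nr1h3 did not. Lpl passed through plasma high cells alone, with a read in 13.8% of them before thinning against 4.62% of plasma none cells, so its direction is bound to the filter. The members were chosen with earlier results known, so their counts beside all genes are a description only. Lpl, Abca1 and Soat1 (3 of 7) were higher at all 3 TH numbers, where 18.8% of all 5534 genes compared were. Abcg1 (1 of 7) was lower at all 3, where 13.8% of the genes were. Lpl (1 of 7) also had a mean log2 ratio of at least 1, where 5.15% of the genes met that size rule in either direction. The median log2 ratio over the 7 genes was 0.17, and 0.05 over all genes compared. Without TH 1 the median of the 7 was -0.10.

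In plasma low cells against plasma none cells 6 genes were compared, Lpl being read in too few cells. Soat1 (1 of 6) was higher at all 3 TH numbers, where 16.7% of 5489 genes were, and Abcg1 and Acsl1 (2 of 6) were lower, where 11.8% were. None met the size rule, which 2.64% of the genes met. The median was -0.04, and 0.05 over all genes. In plasma high cells against plasma low cells Lipa (1 of 7) was higher at all 3 TH numbers, where 14.1% of 5709 genes were. None was lower at all 3, where 13.1% were, and none met the size rule, which 3.28% met. The median there was 0.12, and 0.01 over all genes. The comparisons share groups and do not stand independently of each other. Over all genes compared in plasma high cells against plasma none cells, the mean log2 ratio had a median size of 0.32 and a median SD of 0.56, so the ratios of Abca1 and Soat1 were above the median size and those of Lipa, Acsl1 and Nr1h2 below it.

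**Figure D4:**
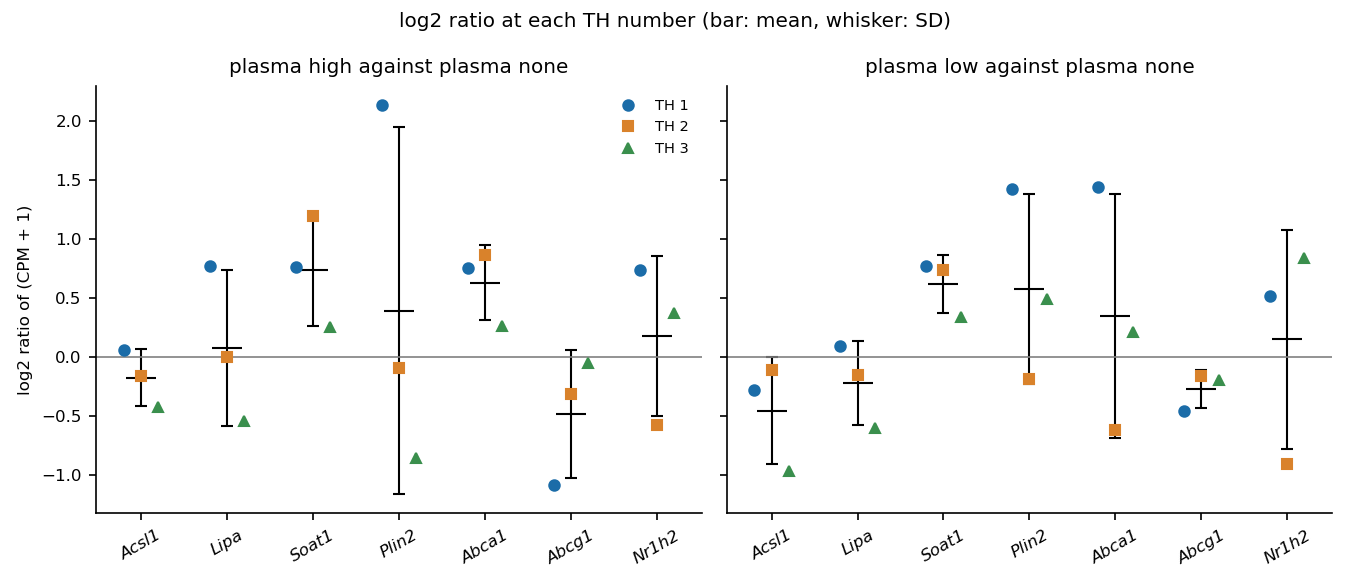
log2 ratio of (CPM + 1) of plasma high (left) and plasma low (right) to plasma none cells at each TH number for 7 genes, with the mean as a bar and the SD over 3 TH numbers as a whisker. Soat1 lies above 0 and Abcg1 below 0 at every TH number in both panels; Lpl is off this scale because it was at 0 in plasma none cells at TH 1, and Fabp5 and Nr1h3 had too few reads.

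The genes were also compared within cells. At equal depth a cell had a read of a mean of 1.73 of the 10 genes in plasma none cells, 2.07 in plasma low cells and 2.11 in plasma high cells, and 96 of the 987 cells had none of them. Among the 85 cells with an Lpl read 44.7% also had a Lipa read, against 32.5% of the other cells, and the share was higher at all 3 TH numbers (by 12.4, 8.20 and 16.4 points). Within plasma high cells 21 of 37 Lpl cells had Lipa against 34.4% of the rest, and within plasma none cells 4 of 15 had it against 30.2%. A Plin2 read was found in 12 of the 85 Lpl cells (14.1%) and in 6.21% of the other cells, again higher at all 3 TH numbers. Cells with an Lpl read had a read of a median of 1816 genes and cells without one 1662, so Lpl cells were richer in detected genes as a whole.

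An Abca1 read was found in 28.2% of Lpl cells and 27.4% of the others, with both signs over the TH numbers. Of the cells with Abca1, 71.96% had Abcg1, against 61.9% of the rest, higher at all 3 TH numbers, although the mean levels of the transporters differed in opposite directions between groups. Cells with Abca1 had a median of 1763 genes with a read and cells without it 1629. Lpl was read in 25.6% of the 78 plasma high cells with a read of Apoe, the main apolipoprotein of the brain, and in 8.02% of those without. In plasma none cells these shares were 10.7% and 3.77%. Cells with Apoe also had more genes with a read, a median of 1731 against 1661. The part of detected genes in these shares was not tested. They are shares of cells and not of animals, and carry no test.

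Over the 9 sums, the genes whose log2(CPM + 1) most resembled Lpl were Mul1, Slc43a2 and Orai2, with Pearson r of 0.93, 0.92 and 0.92, and those that most resembled Abcg1 were Cd1d1, Dhrs3 and Ginm1, at 0.96, 0.92 and 0.92. These are the highest of 6951 genes over only 9 points that share groups and TH numbers. The r of Lpl with Abca1 was 0.82 and that of Abcg1 with Abca1 was -0.28. Among the 9 points Lpl was at 0 in plasma none cells at TH 1. In plasma low cells at TH 1 a single cell held 90.7% of its reads. How far the r values of Lpl rest on these points was not tested.

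Other genes of the same pathways were read from 10 lists, in plasma high cells against plasma none cells. Most list genes were too low to be compared. Over all genes compared 18.8% were higher and 13.8% lower at all 3 TH numbers, and with 4 to 13 genes compared in a list no list is set apart by its counts. Of the genes named below, Apoe, Ncoa2, Elovl5, Gpat4, Galc, Scap and Abca3 reached the 10% of cells only through plasma high cells, so a higher level there is bound to the filter (Abca3 was lower). In the list of liver X receptor partners and targets 12 of 25 genes were compared: Apoe, Rxrb and Ncoa2 were higher at all 3 TH numbers and Mylip, Lpcat3, Abca3 and Ncoa3 lower. Apoe stood at 99.5, 148.6 and 1196 CPM in none, low and high cells (log2 ratio 3.48 ± 1.73), and Mylip, which marks the LDL receptor for degradation, at 1197, 949.5 and 704.7 CPM (-0.77 ± 0.21). The list's median was 0.05, the same as over all genes, with 3 genes higher, 4 lower and 5 of both signs. Genes other than the largest rise and fall of each list are named here and below because their counts were small, after their values were seen.

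In lipoprotein uptake 5 of 14 genes were compared, with Lrp1 and Lrpap1 higher, Mylip lower and a median of -0.23. Of the Lpl partners 4 of 11 were compared, and Sel1l, which the secretion of lipoprotein lipase needs, was higher (78.1 against 160.3 CPM in the means, log2 ratio 0.96 ± 0.65) and Furin, a protease that cuts the lipase, lower (-0.32 ± 0.27). In sterol transport 9 of 19 were compared. Npc1 and Npc2, which move cholesterol out of the lysosome, Osbpl9 and Tspo were higher, Stard5 was lower (-0.66 ± 0.59), and the median was 0.34. In sterol synthesis 9 of 26 were compared, with Insig2 and Msmo1 higher and a median of -0.34. The largest rise and fall there, Scap (0.79 ± 1.02) and Ebp (-0.84 ± 0.77), had both signs.

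Fatty acid synthesis had 6 of 17 genes compared, with Acly, Elovl5 and Mlxipl higher, none lower and a median of 0.42. Acly, which makes cytosolic acetyl-CoA, was at 48.2, 84.8 and 102.6 CPM in none, low and high cells (log2 ratio 1.05 ± 0.14) and met the size rule, while Elovl1 had both signs (-0.04 ± 0.17). Fatty acid oxidation had 9 of 25 compared, with Eci2 higher (0.82 ± 0.30), none lower, Etfdh of both signs (-0.58 ± 1.48) and a median of 0.34. Fatty acid binding and activation had 5 of 17 compared, with Acsl4 lower, none higher and a median of 0.16. There the largest rise, Acsl5 (0.59 ± 0.70), and the largest fall, Acbd3 (-0.75 ± 1.12), had both signs.

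Droplets and lipolysis had 8 of 25 compared, with Pnpla2, the main triglyceride lipase of droplets, lower, none higher and a median of -0.07. Gpat4 (0.94 ± 1.55) and Ldah (-0.45 ± 0.88) had both signs. Of the lysosomal lipid enzymes 13 of 14 were compared, Lipa among them. Psap, Gm2a and Asah1 (3 of 13) were higher and Pla2g15 (1 of 13) lower, near the shares of all genes, with a median of 0.08. Galc (2.15 ± 2.05) and Smpd1 (-0.22 ± 1.11), the largest rise and fall there, had both signs.

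**Figure D5:**
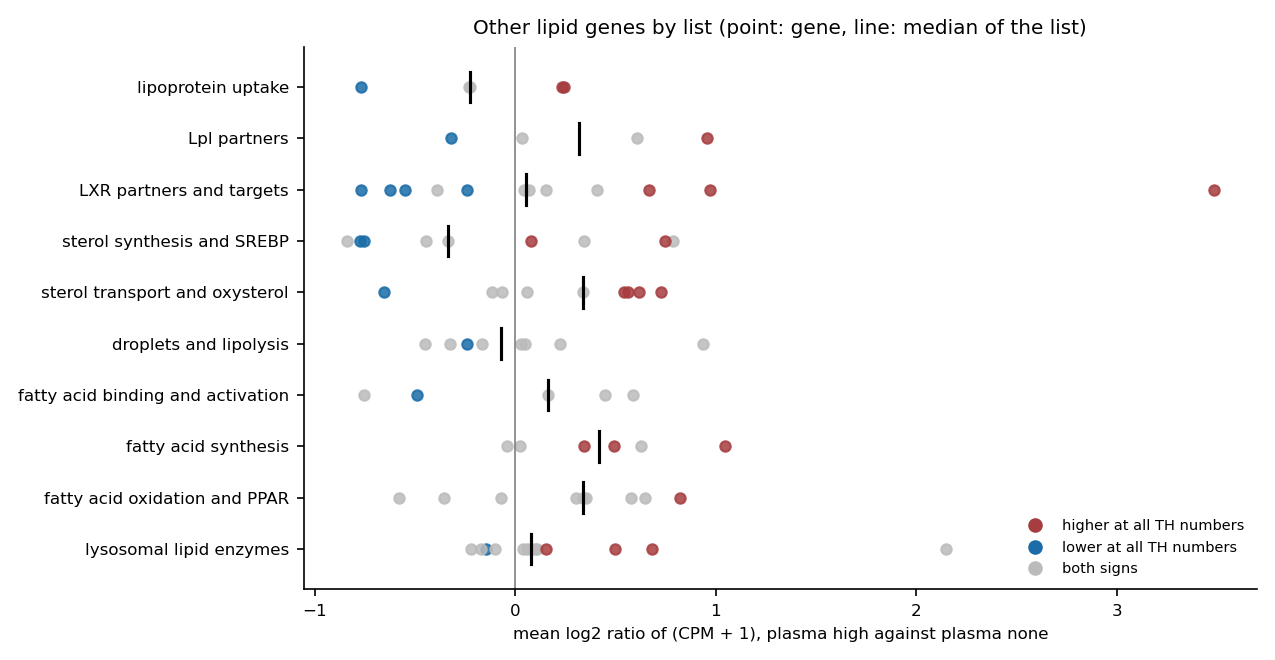
Mean log2 ratio of (CPM + 1) of plasma high cells to plasma none cells for each compared gene of 10 lipid lists (points) and the list's median (black line), coloured by whether the sign was the same at all 3 TH numbers. Apoe is the point farthest to the right at 3.48, and the medians lie between -0.34 and 0.42.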

How the data were processed

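The authors deposited 1 table per TH number with a read count per gene and cell, made from mm10 data. The submitters' processing notes name bcl2fastq, Trim Galore, STAR 2.5.3a and Seurat, without their roles. Which tool counted the reads, and whether by strand, is not given in the sources used here. Per the file headers, the columns of TH 2 and TH 3 come from alignments kept to top hits, while those of TH 1 carry no such note, so genes with close copies may be counted differently. In 1 deposited column 2 values were not whole, were taken for expected counts and were rounded. Of 1111 labelled cells 1045 had a column, 66 were not analysed here, and 0 columns were left unused.

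Cells passed with 50000 reads in genes and 500 genes. Reads were summed by group and TH number into 9 sums of 21309816 to 49323522 reads, scaled to CPM with TMM factors (edgeR 4.0.16, R 4.3.3), and compared within each TH number as log2(CPM + 1). A gene was compared with a mean of 20 CPM and a read in 10% of the cells of 1 group. That filter used cells before thinning and so was not set at equal depth. The size rule asked for a mean log2 ratio of at least 1 with 1 sign at all 3 TH numbers. The ratios were checked on simulated counts. Shares use cells thinned to 50000 reads. Intervals are 95% exact Poisson or Clopper-Pearson. Genes were handled by ID, and the coordinates are those of the tables, of which 99.6% are the same in GENCODE M21. Named genes were the 10 members, the largest rise and fall of each lipid list, and the 3 genes most like Lpl and Abcg1; other list genes were named after their values were seen. Each library was a single sorted cell, and no doublet caller or clustering was run. The members and lists were chosen with earlier results of these data known. 1 gene of the sterol synthesis list is not reported here.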

Additional observations from a re-analysis of the deposited data

How the results depend on the processing

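Each result was recomputed under other scalings, pseudocounts, cell filters and gene filters, with thinned cells, without the cell that held most reads of a gene, without each TH number and, added after seeing the data, without cells holding markers of another type. Depth per cell and the 3 TH sets, not stated to be animals, limit all values. All but 2 of the members' log2 ratios, and all but 7 of the share differences, moved by less than 1 SD. That SD is the one over the 3 TH numbers, and leaving 1 TH number out cannot move a mean of 3 that far. A wide SD also takes in large shifts: for Lpl in plasma low against none it was 4.74, and the ratio ran from 0.238 to 4.47. These counts therefore do not show that the values are stable. From plasma none cells to plasma high cells the log2 ratio ran from 1.40 to 4.26 for Lpl, 0.51 to 0.81 for Abca1, 0.51 to 0.98 for Soat1 and -0.70 to -0.18 for Abcg1 over these alternatives. For Lipa (-0.27 to 0.38), Nr1h2 (-0.10 to 0.55) and Plin2 (-0.49 to 1.02) the sign was not kept.

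With 1 TH number left out, a sign needs to hold at only 2, so the counts are larger by construction. For plasma high against none, 29.6 to 31.4% of the genes compared were then higher, 24.5 to 24.7% lower and 8.11 to 10.9% met the size rule. For plasma low against none these were 28.4 to 30.2%, 22.5 to 23.8% and 5.48 to 6.87%. For plasma high against low they were 25.3 to 27.7%, 24.4 to 25.3% and 6.83 to 7.74%, and the median over the members ran from -0.12 to 0.22. With no filter beyond 1 CPM, 13160, 13012 and 13066 genes were compared in these 3 comparisons, so the counts were again larger. The shares were 14.1%, 13.6% and 11.5% higher, 13.1%, 11.5% and 12.6% lower, and 10.7%, 8.36% and 8.69% past the size rule. The median over the members in plasma low against none was then 0.25, with Lpl and Plin2 entering the genes compared.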
